A study of Sus scrofa with 6 samples.

Results

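The genes described here are 51 genes of glucose use and the citric acid cycle, grouped by step into carriers of glucose and lactate, glycolysis enzymes, enzymes of the pyruvate and lactate step, citric acid cycle enzymes, malate-aspartate partners and glycogen enzymes. They were chosen by gene name, as enzymes and carriers of these steps. A probe set, the group of short probes that reads one transcript on the array, was taken for a gene where the array's annotation gives it that single gene symbol. Where a gene had several, the one with the highest mean log2 signal over the 6 arrays was used. In this way 44 of the 51 genes were measured, out of 6765 genes with a named probe set in the whole series. SLC16A1, HK2, ALDOA, PGAM1, PDK1, PDK2 and GBE1 had no probe set of their own name and were not analysed here.

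RNA came from the left ventricular (LV) free wall of Large White piglets. In the Dox group, 3 piglets received doxorubicin (Dox), an anthracycline that damages heart muscle, at a dose of 2.0 mg/kg. In the PBS group, 3 piglets received phosphate-buffered saline in its place. The labels give an age of 8 days at injection and 28 days at tissue collection, 3 weeks later, whereas the study's text describes a somewhat different schedule. Each array held the RNA of 1 animal, so the p-values measure the spread between animals, and the 6 arrays limit the precision. No genetic modification was involved, and pieces of the wall were extracted as whole tissue, with all the cell types they hold.

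Glycolysis splits glucose into pyruvate in the cytosol. Pyruvate is then either turned into lactate by lactate dehydrogenase, or taken into mitochondria and turned into acetyl-CoA by the pyruvate dehydrogenase complex, which feeds the citric acid cycle. The heart of the newborn relies strongly on glucose and lactate, and in the first weeks of life it moves toward fatty acids as its main fuel. Pyruvate dehydrogenase kinases switch the complex off when fatty acids are plentiful.

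On the whole, the pathway differed little between Dox- and PBS-injected piglets. Of the 44 genes, 23 had a higher mean log2 signal in the Dox group and 21 a lower one. For 37 of them the log2 difference was smaller than 0.5 in size, and the median difference was 0.00 log2, against -0.10 over all 23999 probe sets tested. No gene passed the study's threshold, which asked for a fold of 2 or more and an adjusted p no higher than 0.05. The same was true of every probe set on the array (0% called by limma, and also by the methods' t-test), and the smallest adjusted p among the 44 genes was 0.521 by limma. Without adjustment, limma gave p at most 0.05 for 1 gene with a higher signal in Dox, LDHB (3.62% of all probe sets), and for 2 genes with a lower one, DLAT and ENO2 (5.92% of all). The signals of all 3 Dox arrays lay above those of all 3 PBS arrays for 8 genes, 18.2% of the 44 against 6.19% of all probe sets, and below them for 3 genes, 6.82% against 10.1%.

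**Figure D1:**
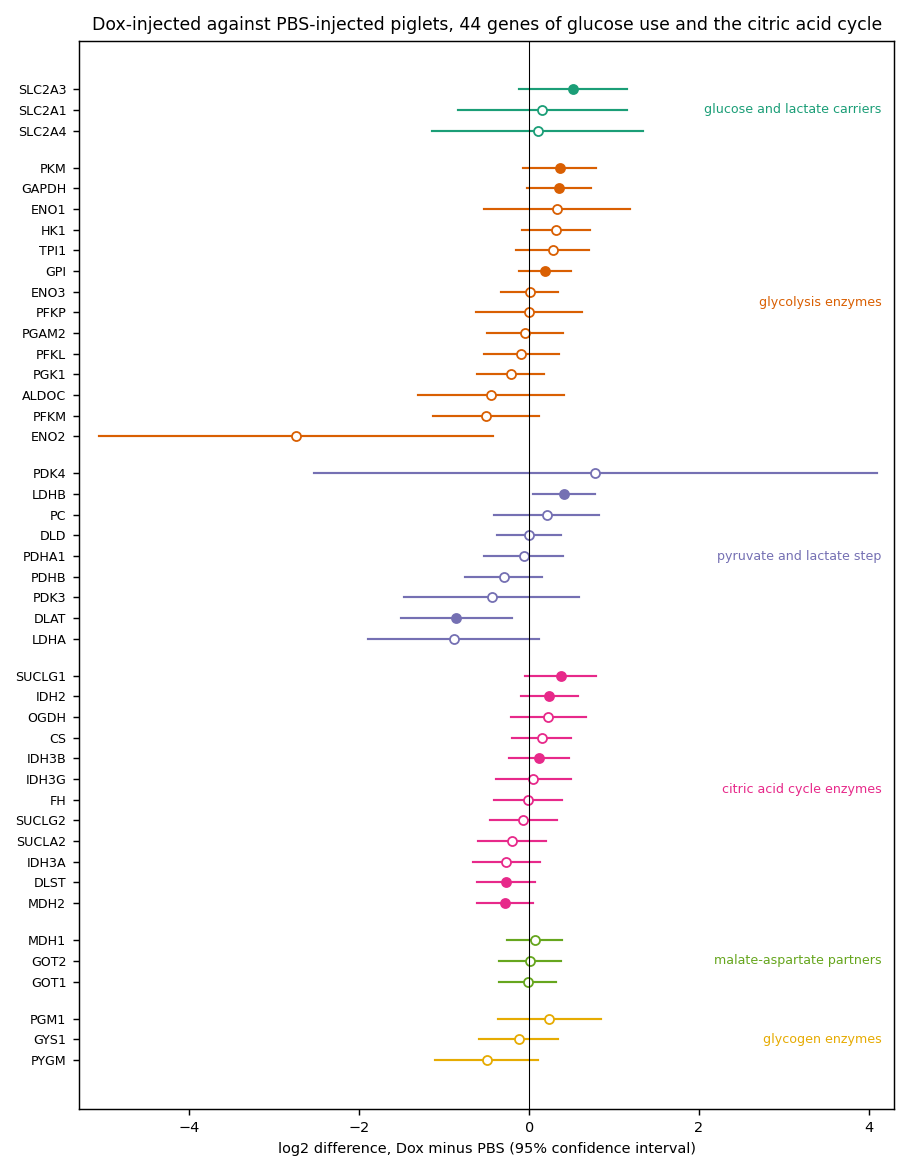
Log2 difference, Dox minus PBS, of each of the 44 genes with its 95% confidence interval from limma (n = 3 each), grouped by step. Filled points mark the 11 genes whose Dox and PBS arrays did not overlap, 8 of them above 0 and 3 below; 41 of the 44 intervals cross 0.

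The brightness of a probe set bears on these counts. Most of these enzymes are abundant in heart muscle, and 33 of the 44 lay among the 2933 probe sets with a mean signal of at least 258.5, the lower quartile of the genes themselves. In that bright set, 16.3% of probe sets had Dox arrays all above the PBS arrays and 8.73% all below. With limma's unadjusted p no higher than 0.05, 10% of the bright set was higher in Dox and 5.93% lower. Of the 33 genes in that set, 7 had Dox arrays all above the PBS arrays and 2 all below, near the 16.3% and 8.73% of the set. The remaining genes without overlap, PKM and DLAT, are dimmer. The median difference over the bright set was 0.03 log2. Over all probe sets it depended on brightness, with -0.21 log2 at signals from 16 to 64 and -0.01 from 256 to 1024. It was 0.08 from 1024 to 2048, 0.21 from 2048 to 4096 and 0.33 above 4096, where 97.9% of 143 probe sets were higher in Dox. The 44 genes had medians of 0.08 from 256 to 1024 (10 genes) and -0.05 from 1024 to 2048 (11 genes). They had 0.08 from 2048 to 4096 (8 genes) and 0.21 above 4096 (4 genes). These medians lay below those of all probe sets in each range above 1024, and above from 256 to 1024. The limits of these ranges were set after the values were seen, and the part of brightness in any single difference was not tested.

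**Figure D2:**
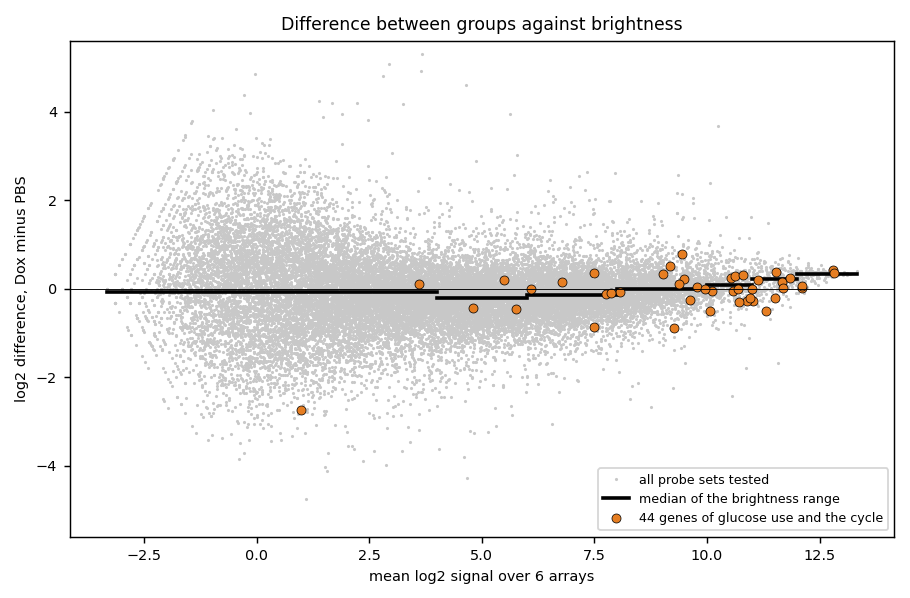
Log2 difference, Dox minus PBS, against the mean log2 signal over 6 arrays, for all probe sets tested (grey) and the 44 genes (orange); black bars are medians of 7 brightness ranges. The medians lie at -0.21 between signals of 16 and 64 and at 0.33 above 4096, and all 4 of the genes above 4096 lie above 0.

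The arrays themselves differed in a few respects. Of 14 cardiomyocyte markers 12 were measured, and their summed signal was 60806.2 to 79155.4 in Dox and 50412 to 61261.6 in PBS samples, with a median difference of 0.29 log2. These markers are bright, with a median signal of 5601.7, and all probe sets above 4096 had a median difference of 0.33 log2. Of the 12 markers 10 lay above 0, while the dimmer RYR2 and CASQ2 lay below (-0.29 and -0.20 log2). No cardiomyocyte marker was at the level of the array's Tag probe sets on 4 or more arrays. The Tag probe sets carry sequences absent from the pig and served as the low reference (highest signal 3.1 to 5.5 on the Dox arrays and 2.5 to 6.3 on the PBS arrays). The 6 fibroblast markers measured of 8 were all lower in Dox, with sums of 1137.4 to 2757 against 2883.3 to 4672.5 and a median of -1.01 log2. The 8 endothelial markers had sums of 1307.6 to 1392.4 in Dox and 1474.4 to 2213.6 in PBS samples (median -0.61 log2). The 9 leukocyte markers measured of 11 had sums of 482.9 to 1297.6 in Dox and 347.8 to 441.4 in PBS samples (median 0.57 log2), and 2 of them were at the Tag level on 4 or more arrays. Without S100A8 and S100A9, proteins of neutrophils and monocytes, the sums of the other 7 overlapped (409.4 to 580 in Dox and 336 to 429.1 in PBS samples), and 3 of the 7 lay below 0. The summed signals of the other lists overlapped between the groups, apart from skeletal muscle markers (6335.5 to 8384 in Dox and 4786 to 5993.4 in PBS samples, 9 of 13 measured, 4 at the Tag level, median 0.06 log2). That sum was nearly all CKM, a creatine kinase that heart muscle also makes in quantity, and without it the sums were 34.2 to 62.3 in Dox and 59.2 to 274.4 in PBS samples, with MYL1 lower on every Dox array (-2.19 log2). The other lists were red cell markers (3 of 8 measured, median -0.82 log2), adipocyte markers (4 of 6, 0.24), smooth muscle and pericyte markers (5 of 6, 0.02) and neuronal markers (3 of 6, -0.58). Across the 11999 brighter probe sets, Dox 3 generally correlated least with the other arrays (r = 0.86 to 0.92, against 0.91 to 0.98 among the others). PBS 1 stood apart in the markers. Its red cell sum was 683.6, against 106.1 to 251.1 on the other arrays. It also had the highest fibroblast (4672.5), endothelial (2213.6) and smooth muscle and pericyte (4049.5) sums and the lowest cardiomyocyte sum (50412). RNA quality also varied, since the 3′ to 5′ signal ratio of the actin control was 6.04, 3.96 and 2.20 on the Dox arrays against 2.63, 2.28 and 1.96 on the PBS arrays. For the first GAPDH control set it was 1.55, 1.26 and 1.24 in Dox against 1.28, 1.18 and 1.155 in PBS samples. For the second it was 2.93, 1.33 and 1.24 against 1.68, 1.28 and 1.18. Dox 1 had the highest ratio in each. In whole tissue, fewer cells of a type and less RNA per cell cannot be told apart, and the part of cell composition and RNA quality in the differences below was not tested.

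The carriers bring glucose across the cell membrane. SLC2A3 (GLUT3), a high-affinity glucose carrier, read 520.5, 593.5 and 1076.3 on the Dox arrays against 424.2, 518.6 and 516.9 on the PBS arrays. All Dox values were above all PBS values, though Dox 1 exceeded the highest PBS array only narrowly and Dox 3 stood well above the rest. The log2 difference was 0.52 ± 0.28 (SE; limma, adjusted p = 0.567), and it fell to 0.20 without Dox 3. SLC2A1 (GLUT1), the carrier of the fetal heart, read 66.6, 143.1 and 160.9 in Dox and 180.4, 72 and 85.5 in PBS samples. SLC2A4 (GLUT4), the insulin-responsive carrier of muscle, was dim in both groups, with 7.3, 10 and 27.1 in Dox and 16.4, 10.9 and 9 in PBS samples. For both the groups overlapped widely, and the sign of their differences (0.16 and 0.10 log2) turned without one or another of the arrays. The other 2 probe sets of SLC2A4 differed by -0.94 and 0.12 log2, also with overlap.

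The 14 glycolysis enzymes measured had a median difference of 0.00 log2, with 8 above 0 and 6 below. GAPDH, which oxidises glyceraldehyde 3-phosphate, read 7649.5, 7131.3 and 9758.6 in Dox and 5645.6, 6566.4 and 6893.5 in PBS samples. The groups did not overlap, and the fold was 1.28 (0.35 ± 0.17 log2, limma, adjusted p = 0.535). Probe sets of that brightness had a median difference of 0.33 log2, and after quantile normalization the difference for GAPDH was -0.0038. The other probe sets of this gene disagreed among themselves. A second bright one was also higher on every Dox array (0.33 log2). Of 3 dimmer ones, 2 were lower on every Dox array (-0.81 and -1.23 log2), and the third overlapped (-0.08 log2). The one at -1.23 read only 4.6 to 16.1, with 1 array within the range of the Tag probe sets. The one at -0.08 read 3.2 to 5.5, with 3 arrays within it. The array also carries 9 control probe sets for GAPDH, left out of the tests as array controls, of which 7 lay above 0 and 3 had Dox arrays all above the PBS arrays.

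PKM, the pyruvate kinase of most tissues including heart, read 182.7, 206.2 and 226.3 in Dox and 161.4, 162.8 and 154.3 in PBS samples. The 3 PBS values lay close together and every Dox value was above them. The fold was 1.28 (0.36 ± 0.19 log2, limma, adjusted p = 0.565). The difference was 0.44 after quantile normalization and 0.46 after cyclic loess, so it was not reduced by either, while averaging with a second, very dim PKM probe set turned it to -0.25. GPI, which converts glucose 6-phosphate to fructose 6-phosphate, read 2348, 2402.5 and 2448.8 in Dox and 2079.4, 2067.4 and 2180 in PBS samples. Its groups were tight and did not overlap, with a fold of only 1.14 (0.19 ± 0.14 log2, limma, adjusted p = 0.645). Quantile normalization brought this to 0.01 log2.

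Phosphofructokinase catalyses the committed step of glycolysis, and PFKM is its muscle subunit. PFKM read 3327.1, 1663.6 and 1773 in Dox and 2624.1, 2968.3 and 3605.1 in PBS samples. Dox 2 and Dox 3 were below every PBS array, whereas Dox 1 was among the highest of all 6. The difference was -0.51 ± 0.27 log2 (limma, adjusted p = 0.568). It stood at -0.82 without Dox 1 and at -0.32 without Dox 2. The liver and platelet subunits PFKL and PFKP differed by -0.09 and 0.00 log2, and these signs turned under other settings.

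ENO2, the neuronal enolase, had the lowest signal and the largest difference of the 44 genes. It read 0.3, 0.4 and 3.7 in Dox and 9.1, 3.1 and 4.7 in PBS samples. The groups overlapped, since Dox 3 read above PBS 2, and 3 of the 6 arrays (Dox 1, Dox 2 and PBS 2) were within the range of the Tag probe sets. The fitted difference was -2.74 ± 1.02 log2 (limma, adjusted p = 0.521), and an offset of 16 added before taking log2 reduced it to -0.30. ENO3, the enolase of striated muscle, is bright and differed by 0.01 log2 as deposited, a sign that turned under quantile normalization (-0.27) and cyclic loess (-0.23). ENO1, the widely expressed enolase, read 399, 484.3 and 1035 in Dox and 675.9, 421.1 and 359 in PBS samples. Its difference of 0.32 log2 rested on Dox 3 and was -0.09 without that array.

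The other glycolysis enzymes had overlapping groups. HK1, the hexokinase that traps glucose in most tissues, and TPI1, which interconverts the triose phosphates, differed by 0.32 and 0.28 log2. PGK1, a kinase that makes ATP in glycolysis, differed by -0.22, which median centring turned to 0.01. ALDOC, the brain aldolase, differed by -0.45 log2 and read 100 on PBS 1 against 36.8 to 70 on the other 2 PBS arrays and 41.9 to 54.6 on the Dox arrays. PGAM2, the muscle phosphoglycerate mutase, differed by -0.05, and median centring turned its sign.

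**Figure D3:**
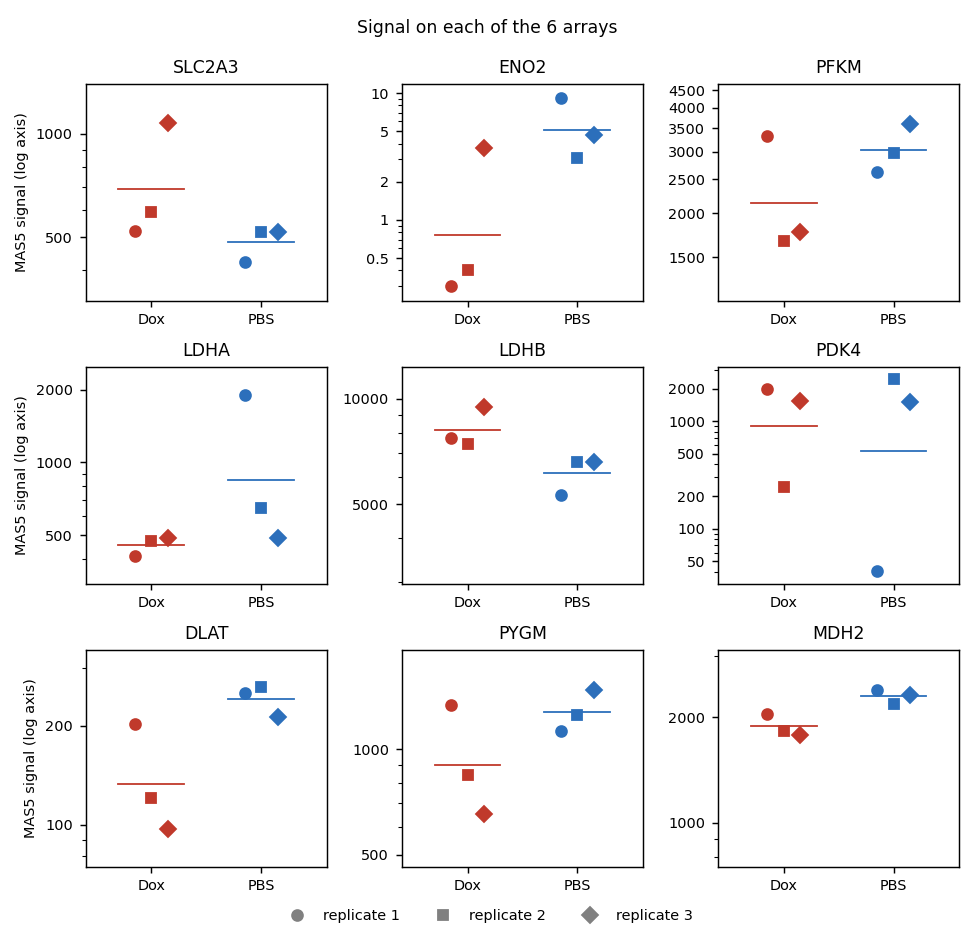
MAS5 signal (log axis) of 9 genes on each array, Dox left and PBS right; symbols mark replicates 1 to 3 and lines the geometric mean (n = 3 each). DLAT, MDH2, LDHB and SLC2A3 do not overlap between the groups, the high LDHA signal of 1907.9 and the low PDK4 signal of 40.1 are both on PBS 1, and Dox 1 lies apart from the other Dox arrays in PFKM and PYGM.

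The 9 genes of the pyruvate and lactate step had a median of -0.06 log2, or -0.30 without PBS 1, with 3 above 0 and 6 below. DLAT, the E2 subunit of pyruvate dehydrogenase that passes the acetyl group to coenzyme A, read 202.3, 120.6 and 96.8 in Dox and 251.7, 262.3 and 212.6 in PBS samples. Every Dox array was below every PBS array, with Dox 1 near the lowest PBS value. The signal in PBS samples was 1.81 times that in Dox samples (-0.86 ± 0.29 log2, limma, adjusted p = 0.521). Among the 44 genes its limma p before adjustment was the smallest, while the methods' t-test gave an unadjusted p of 0.0595. DLAT was lower in Dox in all 16 alternative settings tried, by -1.16 to -0.63 log2. Probe sets of like brightness had a median difference of -0.14 log2.

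The other subunits of the complex differed less. PDHA1, the catalytic E1 alpha subunit, read 860.4, 1087.1 and 1344.2 in Dox and 1066.7, 1301.7 and 1030.3 in PBS samples, a complete overlap with a difference of -0.06 log2 whose sign turned under median centring. PDHB, the E1 beta subunit, was lower in Dox 2 and Dox 3 (1584.6 and 1154.9) than in any PBS sample (1809.1 to 1894.3), but not in Dox 1 (1873). The difference was -0.30 log2, and -0.11 without Dox 3. DLD, the E3 subunit that this complex shares with others, differed by 0.00 log2.

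LDHB is the lactate dehydrogenase subunit that predominates in heart. By limma it was the single gene with an unadjusted p under the threshold and a higher signal in Dox. The methods' t-test gave LDHB an unadjusted p of 0.053. By that test PKM (0.018) and GPI (0.0034) were the genes under the threshold and higher in Dox. LDHB read 7735.7, 7432.9 and 9494.9 in Dox and 5306.7, 6605.8 and 6606.8 in PBS samples, with no overlap. The fold was 1.33 (0.41 ± 0.16 log2, limma, adjusted p = 0.521). It exceeded the median of equally bright probe sets by 0.08 log2, and the difference was 0.06 after quantile normalization and 0.12 after cyclic loess. LDHA, the subunit of skeletal muscle and of tissues low in oxygen, read 410.5, 472.2 and 489.6 in Dox and 1907.9, 646.9 and 488.1 in PBS samples. The Dox arrays lay close together, PBS 3 matched them, and PBS 1 was far above all other arrays. The difference was -0.89 ± 0.44 log2 (limma, adjusted p = 0.547), and -0.30 without PBS 1.

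Within each array the log2 ratio of LDHA over LDHB was -4.24, -3.98 and -4.28 in Dox samples against -1.48, -3.35 and -3.76 in PBS samples. The ratio was lower on every Dox array, by a mean difference of -1.30. The exact two-sided permutation test gave p = 0.1, the smallest that 3 against 3 arrays allow, and 0.4 after Benjamini-Hochberg adjustment over the 4 isoform pairs with both genes measured. Without PBS 1 the difference was -0.61. It was -1.05 after quantile normalization and -1.03 after cyclic loess. Probe sets as bright as LDHA had a median difference of -0.01 log2, and those as bright as LDHB 0.33. The part of brightness in the ratio was not tested. The pairs PFKP over PFKM (0.51), ENO1 over ENO3 (0.32) and SLC2A1 over SLC2A4 (0.06) overlapped between the groups.

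PDK4, the kinase that shuts off pyruvate dehydrogenase during fasting and fat use, varied more between animals than any other gene of the 44. It read 2017.3, 244.6 and 1529.7 in Dox and 40.1, 2465.9 and 1516.7 in PBS samples, so that the highest array was 61.5 times the lowest. One low animal occurred in each group, Dox 2 and PBS 1. A second PDK4 probe set had the same order within each group, with 197.4, 15.7 and 172.1 in Dox and 2.3, 422.5 and 213.4 in PBS samples. The difference between the groups, 0.78 ± 1.45 log2 (limma, adjusted p = 0.873), was smaller than its error and was -1.09 without PBS 1. PDK3, a further kinase of the complex, differed by -0.44 log2, and pyruvate carboxylase (PC), which refills the cycle with oxaloacetate, by 0.21, both with overlap.

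**Figure D4:**
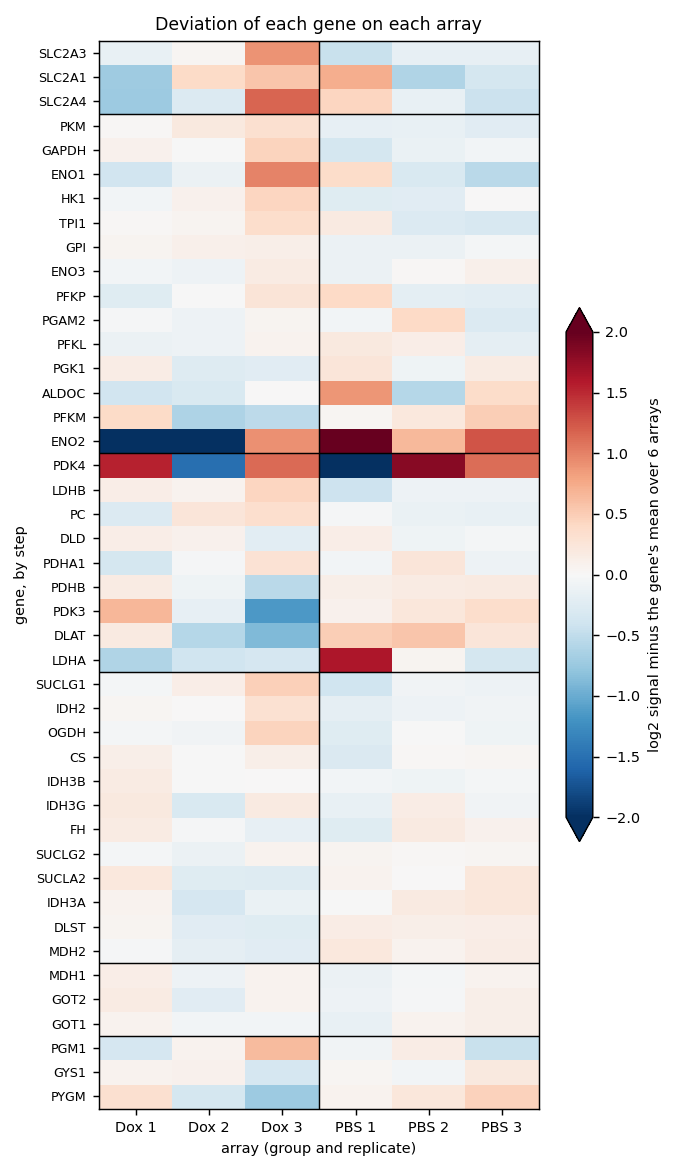
Log2 signal of each of the 44 genes on each array minus its mean over the 6 arrays, Dox arrays left of PBS arrays, with lines between the steps; red is above and blue below the mean, and colours end at 2 log2. ENO2 and PDK4 carry the deepest colours, LDHA stands out on PBS 1, and most cycle and malate-aspartate enzymes are pale on every array.

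The 12 citric acid cycle enzymes differed little, with a median of 0.02 log2, 6 above 0 and 6 below, and no difference beyond 0.37. SUCLG1, the shared alpha subunit of succinyl-CoA ligase, read 2886.7, 3247.8 and 4124.2 in Dox and 2261.5, 2840.8 and 2786.8 in PBS samples. The groups did not overlap, although Dox 1 was only just above PBS 2. The fold was 1.29 (0.37 ± 0.18 log2, limma, adjusted p = 0.545), and 0.16 log2 remained after quantile normalization. Its partners, the ATP-forming SUCLA2 and the GTP-forming SUCLG2, differed by -0.20 and -0.07 log2, signs that median centring turned.

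Among the isocitrate dehydrogenases, the NADP-dependent mitochondrial IDH2 read 3782.3, 3723.2 and 4580.2 in Dox and 3265.9, 3428.4 and 3505.8 in PBS samples. The Dox arrays were all above the PBS arrays by a mean of 0.24 ± 0.15 log2 (limma, adjusted p = 0.599), a difference that quantile normalization brought to -0.0034. IDH3B, a subunit of the NAD-dependent enzyme of the cycle, read 751.3, 664.1 and 674.6 in Dox and 647.2, 632.7 and 651.2 in PBS samples. It too did not overlap, with a difference of only 0.11 log2 (limma, adjusted p = 0.819). The other subunits, IDH3A and IDH3G, overlapped at -0.27 and 0.05 log2. The sign of IDH3G turned under quantile normalization, and a second, dimmer IDH3A probe set was lower on every Dox array, with 32.7, 54.9 and 54.6 against 78.5, 77.5 and 84.3 in PBS samples (-0.80 log2, limma, adjusted p = 0.521).

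MDH2, the mitochondrial malate dehydrogenase that closes the cycle, was lower on every Dox array, with 2045.7, 1835.3 and 1785.7 against 2397.9, 2184 and 2320.1 in PBS samples. The difference was -0.29 ± 0.14 log2 (limma, adjusted p = 0.548). DLST, the E2 subunit of the 2-oxoglutarate dehydrogenase complex and the counterpart of DLAT there, read 1977.3, 1631.4 and 1612 in Dox and 2113.7, 2062.5 and 2088.3 in PBS samples. The PBS arrays were nearly equal and all Dox arrays were below them, by -0.27 ± 0.15 log2 (limma, adjusted p = 0.577). Both genes were lower in Dox in all 16 alternative settings, and both had an unadjusted p of at most 0.05 by the methods' t-test and after quantile normalization or cyclic loess, with adjusted p-values still well above the threshold. Median centring reduced the differences to -0.055 for MDH2 and -0.038 for DLST (limma, adjusted p = 0.92 and 0.946). Probe sets as bright as MDH2 had a median difference of 0.21 log2 and those as bright as DLST of 0.08.

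CS, citrate synthase, the entry to the cycle, read 3523.8, 3207.7 and 3504.3 in Dox and 2665, 3294.7 and 3333.7 in PBS samples. The groups overlapped, and a second CS probe set with 2127.8, 2101.2 and 2104.2 in Dox and 2148.4, 2398.4 and 2464.2 in PBS samples ran the other way (0.15 and -0.14 log2). OGDH, the E1 subunit of the 2-oxoglutarate complex, read 697, 688.7 and 979.5 in Dox and 608.4, 714.2 and 679.2 in PBS samples, where Dox 3 alone stood above the PBS arrays. Its difference was 0.22 log2, and 0.06 without Dox 3. FH, fumarase, differed by -0.02 log2, and median centring turned its sign.

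The malate-aspartate shuttle carries the reducing equivalents of glycolysis into mitochondria. Its cytosolic malate dehydrogenase MDH1 read 4869.6, 4145.7 and 4704.8 in Dox and 4093.3, 4340.3 and 4674.7 in PBS samples, with overlap and a difference of 0.06 ± 0.14 log2 (limma, adjusted p = 0.891). The aspartate aminotransferases GOT1 (cytosolic) and GOT2 (mitochondrial) differed by -0.02 and 0.01 log2. The 95% intervals of the 3 genes ran from -0.36 to 0.39 log2, and their small differences changed sign under quantile normalization or median centring.

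Of the glycogen enzymes, PYGM, the muscle glycogen phosphorylase that releases glucose 1-phosphate, read 1341.1, 845.4 and 651.6 in Dox and 1128.5, 1255 and 1477.5 in PBS samples. As with PFKM, Dox 2 and Dox 3 were below every PBS array and Dox 1 was not. The difference was -0.50 ± 0.26 log2 (limma, adjusted p = 0.563), -0.79 without Dox 1 and -0.26 without Dox 3. A second bright PYGM probe set did not overlap, with 636.7, 451.1 and 415.4 in Dox and 687.3, 810.8 and 878.7 in PBS samples (-0.68 ± 0.21 log2, limma, adjusted p = 0.521), and 2 dim ones differed by -0.80 and 0.64. PGM1, which links glycogen to glycolysis, and GYS1, the muscle glycogen synthase, overlapped at 0.24 and -0.12 log2, with the sign of PGM1 turning without Dox 3 and that of GYS1 under median centring.

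Signals within a group varied more in the Dox group, for these genes and for bright probe sets as a whole. The SD of the log2 signal had a median of 0.23 over the 44 genes in Dox and 0.16 in PBS samples, and it was larger in Dox for 32 of 44. The bright probe sets had medians of 0.26 and 0.17, and the SD was larger in Dox for 2028 of 2933. Dox 3 held the highest value of its group for 24 genes, Dox 1 for 19 and Dox 2 for 1. Over all 6 arrays, the highest signal was more than 2 times the lowest for 13 of the 44 genes (29.5%), close to the 32% of bright probe sets.

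Genes of neighbouring pathways were set beside these. Of 66 other glucose genes (carriers, mitochondrial pyruvate and metabolite carriers, pentose phosphate and further glycogen enzymes), 45 were measured, with a median of -0.06 log2, 1 higher and 1 lower in Dox by limma's unadjusted p, against 3.62% and 5.92% of all probe sets. ME3, a mitochondrial malic enzyme, read 287.7, 469.8 and 405.7 in Dox and 116.3, 232.5 and 197.6 in PBS samples (1.12 log2, limma, adjusted p = 0.521), with no overlap. NNT, which makes mitochondrial NADPH, was lower on every Dox array, with 330.7, 318.7 and 339.5 against 443.6, 474 and 402.3 in PBS samples (-0.41 log2). GPD1, the cytosolic glycerol 3-phosphate dehydrogenase, was also lower on every Dox array, with 20.2, 16.6 and 1.1 against 33.7, 29.5 and 39.2 in PBS samples. Its difference was -2.24 log2 (limma, adjusted p = 0.523), and the Dox 3 signal was within the range of the Tag probe sets. Of the 45 genes, 4 did not overlap between the groups (8.89%, against 16.3% of all probe sets).

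The 48 measured genes of the respiratory chain and ATP synthase (of 83 symbols, some of them older names of the same gene) had a median of 0.07 log2, with 2 higher (COX5B and ATP5G2) and 0 lower at that p, where the bright set had 10% higher and 5.93% lower. The 32 measured genes of fatty acid uptake and oxidation (of 36) had a median of -0.04. At that p 1 was higher (LPL) and 1 lower (CPT1A), against 3.62% and 5.92% of all probe sets. No gene of either list, nor of the other glucose genes, passed the study's threshold.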

How the data were processed

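RNA of the LV free wall from 3 Dox- and 3 PBS-injected piglets was hybridised to Affymetrix Porcine arrays. The deposited values are intensities: MAS5 signals that the authors computed in GCOS 1.4 (submitters' processing notes), with every array at a 2% trimmed mean of 100. Scanner files were not used here. Signals of 0 (311 probe sets) were raised to 0.1 and log2 was taken. Of 24123 probe sets, 124 array controls were left out. These include 9 that the annotation names GAPDH. The annotation gave 1 symbol to 10069 of the others, several to 198 and none to 13732.

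In R 4.3.3, limma 3.58.1 (lmFit, eBayes with an intensity trend) was fitted over 23999 probe sets with Benjamini-Hochberg adjustment, and checked on simulated data. Isoform ratios were compared by exact permutation. Python 3.11.15 and matplotlib 3.10.9 were used for the figures. Signals on each array are given for genes with an unadjusted p of at most 0.05 or with groups that did not overlap, for the gene of smallest p in each step, and for 12 genes of known interest. Other genes of those named are given by their differences, and genes of the neighbouring pathways by smallest p, up to 3 a list. The genes and the lists (neighbouring pathways, cell type markers) were chosen with earlier results of these data known. Alternatives were quantile, cyclic loess and median scaling, an offset, leaving out dim probe sets or single arrays, array weights, eBayes without a trend, a replicate block, all probe sets of a gene averaged and the methods' t-test.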

Additional observations from a re-analysis of the deposited data

How the results depend on the processing

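No gene of the 44 passed the study's threshold under any of the 16 alternative settings, and the lowest adjusted p was 0.112 (DLAT, without Dox 1, where 14 probe sets of the whole array passed). Of the 44 log2 differences, 19 kept their sign throughout, among them LDHB, LDHA, DLAT, DLST, MDH2, PFKM, PYGM, SLC2A3, SUCLG1 and ENO2. Most of the other 25 lay near 0. The cause of each change below was not tested. The labels share replicate numbers between the groups, but same-numbered arrays did not deviate together (r = -0.05, 0.12 and -0.15). With the replicate number as a block, 1 gene was higher and 2 were lower by limma's unadjusted p, as without it, and the lowest adjusted p was 0.457.

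The choice of scaling moved the counts most. Of the 44 genes, 23 lay above 0 as deposited, 16 after quantile normalization, 18 after cyclic loess and 33 after median centring. Over all probe sets, 42.9% lay above 0 as deposited and 59% after median centring, which put the overall median at 0.13 log2. The genes at an unadjusted p of at most 0.05 numbered 0 higher and 8 lower after quantile normalization and after cyclic loess, where DLAT, DLST, ENO2, ENO3, MDH2, PFKM, PGK1 and PYGM were lower. Those 8 are 18.2% of the genes. Lower after quantile normalization were 8.76% of the bright probe sets and 4.5% of all, and after cyclic loess 8.08% and 4.4%. Higher were 7.3% of the bright probe sets and 4.5% of all after quantile normalization, and 7.5% and 4.4% after cyclic loess. The gene shares count dimmer genes too, since 33 of the 44 lay in the bright set. The genes past that p numbered 9 higher after median centring (20.5%, against 23.7% of the bright probe sets and 7.8% of all). With array weights 7 were lower (15.9%, against 9.58% of the bright probe sets and 10.4% of all). The methods' t-test gave 2 higher, GPI and PKM (4.55%, against 6.72%), and 2 lower, DLST and MDH2 (4.55%, against 3.48%). There were 0 higher without the trend, against 1.94% of the bright probe sets. Leaving out dim probe sets, which removed 2 of the genes, gave 2 higher (4.76%, against 11.2%) and 1 lower (2.38%, against 5.56%). Leaving out single arrays gave 0 to 3 higher and 0 to 5 lower. The 3 higher and 5 lower came without Dox 1 (6.82% and 11.4%, against 13.5% and 11.8% of the bright probe sets). The 0 higher came without Dox 3 (against 5.39%), and the 0 lower without Dox 2 (against 2.80%).

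The median over the genes was -0.068 log2 after quantile normalization, -0.065 with array weights and 0.23 after median centring. Median centring gave step medians of 0.23 for glycolysis, 0.17 for the pyruvate and lactate step, 0.25 for the cycle, 0.24 for the malate-aspartate partners and 0.11 for glycogen enzymes. Quantile normalization gave -0.081 for the cycle and -0.20 for the malate-aspartate partners, and cyclic loess -0.18 for those partners. Array weights gave -0.087 for the cycle and -0.24 for the pyruvate and lactate step. That step ranged from -0.30 to 0.028 with single arrays left out.

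Signs turned after quantile normalization for CS (-0.11), ENO3 (-0.27), GAPDH (-0.0038), GOT2 (-0.23), IDH2 (-0.0034), IDH3G (-0.047), MDH1 (-0.20) and the SLC2A1 over SLC2A4 ratio (-0.087). After cyclic loess they turned for CS (-0.058), ENO3 (-0.23), GOT2 (-0.20), IDH3G (-0.011) and MDH1 (-0.18). After median centring they turned for DLD (0.23), FH (0.22), GOT1 (0.21), GYS1 (0.11), PDHA1 (0.17), PFKL (0.14), PGAM2 (0.18), PGK1 (0.013), SUCLA2 (0.029) and SUCLG2 (0.16). Array weights turned DLD (0.086), ENO3 (-0.092), GOT2 (-0.13), IDH3G (-0.15), MDH1 (-0.029), PDK4 (-0.9995) and SLC2A4 (-0.061). Averaging every probe set of a gene turned GAPDH (-0.29), PKM (-0.25) and SLC2A4 (-0.24), and an offset of 16 turned PFKP (-0.00018).

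With single arrays left out, the differences that changed sign ranged from -0.11 to 0.56 for SLC2A1, -0.46 to 0.49 for SLC2A4, -0.089 to 0.60 for ENO1, -0.078 to 0.061 for ENO3, -0.12 to 0.20 for PFKP, -0.19 to 0.14 for PGAM2, -0.065 to 0.10 for DLD, -0.22 to 0.10 for PDHA1, -0.88 to 0.028 for PDK3 and -1.09 to 1.88 for PDK4. They ranged from -0.14 to 0.068 for FH, -0.037 to 0.21 for IDH3G, -0.098 to 0.033 for GOT1, -0.075 to 0.12 for GOT2, -0.19 to 0.017 for GYS1 and -0.019 to 0.47 for PGM1. The ratios ranged from -0.011 to 0.64 for ENO1 over ENO3 and -0.26 to 0.37 for SLC2A1 over SLC2A4. Signals near those of the Tag probe sets, as for ENO2, limit what can be read from SLC2A4 and the second probe sets of PKM, PDK3 and GYS1. The same holds for the dimmest GAPDH probe sets, and for averages over the probe sets of these genes.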
